A study of Mus musculus with 3 samples.

Results

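The miRNA profile of the untreated newborn ovary was described from the library at 0 μM DEHP, which was prepared from ovaries of several newborn CD1 mice, pooled after 72 h of culture in serum-containing medium with the vehicle DMSO. This is 1 of 3 libraries of the series. The other 2 came from ovaries cultured in the same way with 10 or 100 μM of di(2-ethylhexyl) phthalate (DEHP), a plasticizer, and they are set beside the untreated library only where this is stated. Where a mature ID filled several rows, 1 row was kept, the one with the largest sum over the libraries. This left 627 miRNAs from 961 rows and 5253367 counts at 0 μM, and all 627 are members of the profile. There is 1 library per concentration, so no test between conditions was made, and the 95% intervals below (exact Clopper-Pearson) cover counting error only and leave out the variation between cultures. Because whole ovaries were sequenced, fewer cells of a type and less RNA per cell cannot be told apart.

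In the mouse, the days after birth are the time when germ cell cysts break down and single oocytes are enclosed by pregranulosa cells to form primordial follicles. The tissue holds oocytes, pregranulosa and surface epithelial cells, stroma, vessels and blood cells. A miRNA is cut from a hairpin by Drosha and Dicer, and the 5′ side (5p arm) or the 3′ side (3p arm) of the hairpin is loaded into an Argonaute protein. The seed, which spans bases 2 to 8 of the mature miRNA, pairs with target mRNAs, and miRNAs with the same seed are treated as a family.

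The sequences of some of the leading miRNAs are shown first. They came from RefSeq on GRCm38.p6, where 529 of the 627 miRNAs were matched by name, and these held 89.7% of the counts. The seed is in capitals. The hairpins lie at chr2:74726070-74726137 (plus strand) for miR-10b, chr11:86584067-86584158 (minus) for miR-21a and chr6:51269812-51269910 (minus) for miR-148a. miR-143-3p and miR-30d-5p have no entry in that table and are given by name.
miR-10b-5p: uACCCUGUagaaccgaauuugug
miR-21a-5p: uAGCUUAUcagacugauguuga
miR-148a-3p: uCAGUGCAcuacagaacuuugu
miR-199a-3p: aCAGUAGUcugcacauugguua
miR-127-3p: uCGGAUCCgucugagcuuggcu

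A small number of miRNAs held most of the counts. miR-10b-5p, whose gene lies within the Hoxd cluster, was the most abundant, with 398751 counts or 7.59% of the library (interval 7.57% to 7.61%). miR-21a-5p, a broadly expressed miRNA, followed with 366192 counts, which was 6.97% (6.95% to 6.99%). miR-148a-3p had 311575 counts (5.93%, 5.91% to 5.95%). miR-143-3p, a miRNA of smooth muscle and fibroblasts, had 288159 counts (5.49%, 5.47% to 5.50%). The intervals of these 4 miRNAs did not overlap. Mature miRNAs are close to each other in length (18 to 26 bases among the listed ones with a sequence), so counts were not divided by length.

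The next ranks were filled by let-7i-5p (194533 counts, 3.70%), let-7f-5p (188443 counts, 3.59%), miR-99a-5p (167924 counts, 3.20%) and let-7g-5p (158793 counts, 3.02%). miR-199a-3p and miR-199b-3p were both listed with 154340 counts. They have the same mature sequence, and their counts were identical in all 3 libraries, so the same reads appear under both IDs and 2.94% is the share of each. Below them came miR-30a-5p with 146987 counts (2.80%), miR-103-3p with 125244 (2.38%) and miR-30d-5p with 112931 (2.15%). miR-27b-3p (108854 counts), miR-127-3p (108309) and miR-26a-5p (108307) had overlapping intervals, and their order is within counting error. The ranks down to the twentieth were taken by miR-199a-5p (105993 counts), let-7c-5p (85995), miR-125b-5p (64621) and miR-99b-5p (60237). Of the 20 most abundant miRNAs, 19 were also among the 20 most abundant at 10 μM and 14 at 100 μM DEHP.

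**Figure D1:**
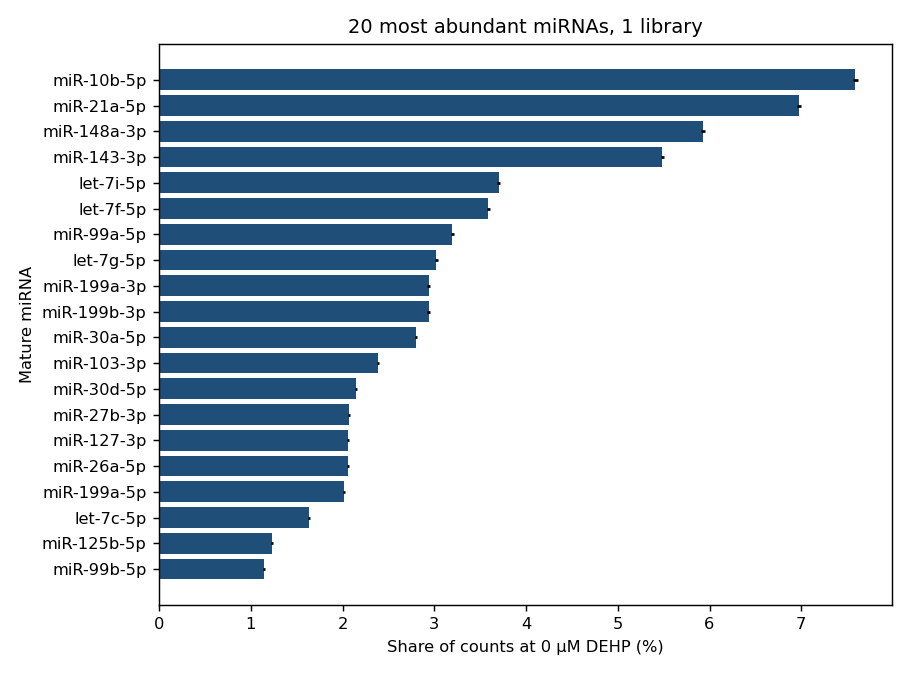
Share of counts (%, x axis) of the 20 most abundant mature miRNAs (y axis) in the untreated library. Bars are shares of 5253367 counts, and the black marks are exact 95% counting intervals. miR-10b-5p and miR-21a-5p lead, and the bars fall from 7.59% to 1.15% within 20 ranks.

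The 10 most abundant miRNAs held 45.4% of the counts, the first 20 held 64.9%, the first 50 held 85.0% and the first 100 held 93.7%. Thus 12 miRNAs were enough for 50% of the counts and 72 for 90%. At the other end, 242 miRNAs had fewer than 100 counts each, and these held 0.178% of the library in all. The median miRNA had 232 counts. No miRNA was listed with fewer than 10 counts at 0 μM, and 13 had exactly 10, so miRNAs below this level are not seen in the table. The ranking spanned from 10 to 398751 counts.

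**Figure D2:**
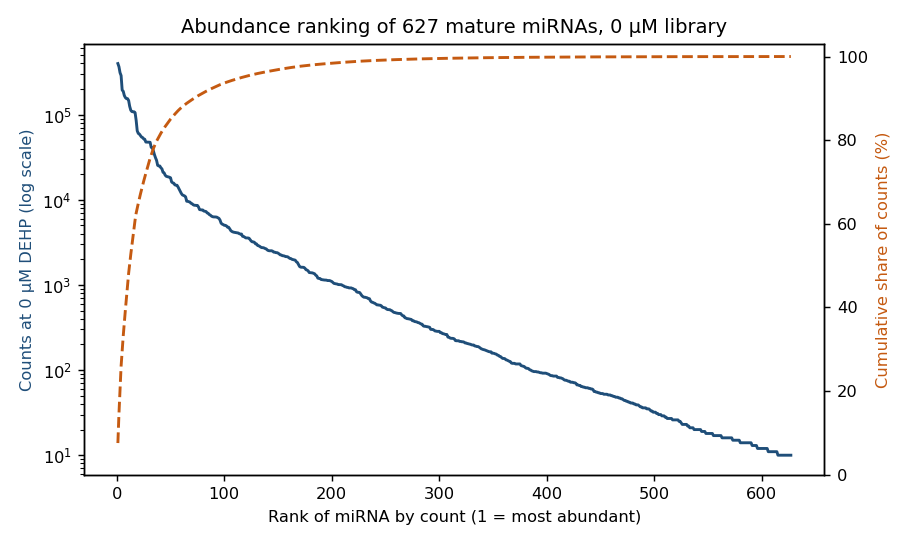
Counts per miRNA on a log scale (left axis, solid line) and cumulative share of counts in % (right axis, dashed line) against the rank of the 627 miRNAs in the untreated library. The dashed line passes 50% at the 12th and 90% at the 72nd miRNA, while the solid line goes on down to 10 counts.

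Grouped by seed, the let-7 family was the largest. It is known for its rise during differentiation and for its control by the RNA-binding protein Lin28. Of the 627 miRNAs, 529 were grouped by their sequence and 19 by name, because all RefSeq entries of the same number and arm had a single seed. The other 79, which include miR-143-3p, were kept apart. This gave 509 groups, of which 72 had at least 2 members. The 7 largest groups held at least 50% of the counts and the 10 largest held 65.3%. The let-7 family had 10 listed members and 724803 counts, which was 13.8% of the library. Its 9 members with the standard let-7 and miR-98 names are shown here because they differ by few bases outside the seed.
let-7i-5p: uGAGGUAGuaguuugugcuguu
let-7f-5p: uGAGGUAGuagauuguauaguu
let-7g-5p: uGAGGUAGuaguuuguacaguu
let-7c-5p: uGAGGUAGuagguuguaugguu
let-7a-5p: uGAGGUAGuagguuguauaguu
let-7e-5p: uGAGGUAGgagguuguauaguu
let-7b-5p: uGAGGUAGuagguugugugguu
let-7d-5p: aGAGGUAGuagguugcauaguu
miR-98-5p: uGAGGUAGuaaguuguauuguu

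No member dominated the let-7 family. let-7i-5p held 26.8% of its counts, and let-7f-5p and let-7g-5p were close behind. let-7c-5p had 85995 counts and let-7a-5p 51973, although their sequences differ at 1 position. let-7f-5p and let-7a-5p also differ at 1 position, so the split of reads among these members is uncertain where the counting allowed mismatches. miR-98-5p had 2534 counts, and let-7i-5p was 76.8 times as abundant (counting interval 73.8 to 79.9).

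**Figure D3:**
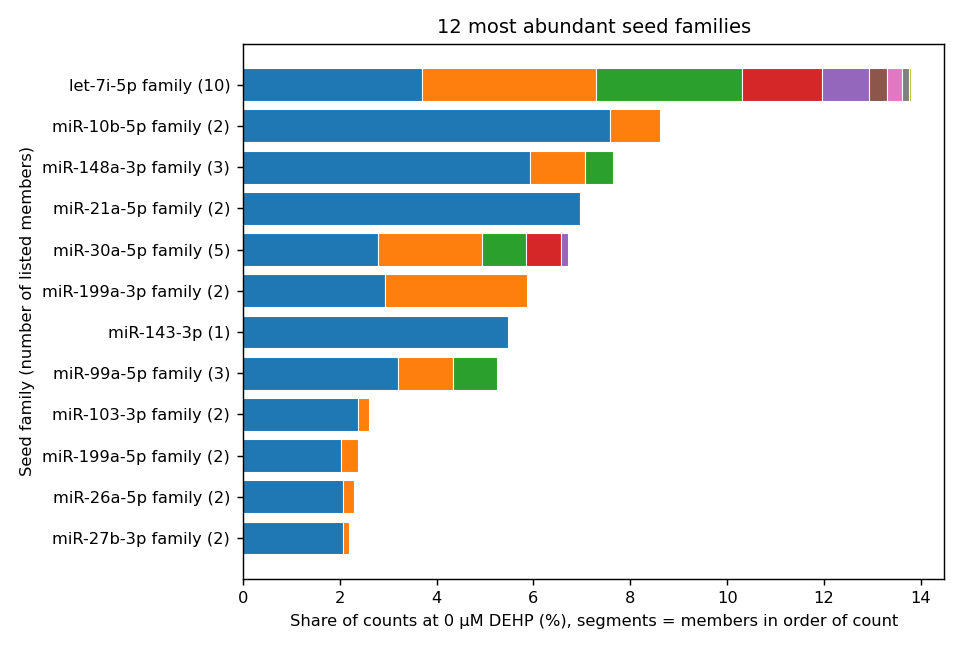
Share of counts (%, x axis) of the 12 most abundant seed families (y axis, with the number of listed members). Segments are the members in order of count. The let-7 bar reaches 13.8% and is made of several segments of like size, whereas the miR-10b-5p, miR-148a-3p and miR-21a-5p bars are filled mostly by the first member.

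The other large families were mostly filled by a single member. The miR-10 family had 452673 counts (8.62%), of which miR-10b-5p made 88.1%. miR-10a-5p, from the Hoxb cluster, had 53922 counts and differs from miR-10b-5p at 1 position. The miR-99 and miR-100 family, with a related sequence but another seed, had 275872 counts (5.25%). miR-99a-5p was 3.52 times as abundant as miR-100-5p, which differs from it at 1 position.
miR-10a-5p: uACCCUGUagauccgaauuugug
miR-99a-5p: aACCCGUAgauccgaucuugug
miR-100-5p: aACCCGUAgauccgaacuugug
miR-99b-5p: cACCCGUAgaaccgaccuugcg

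The miR-148 and miR-152 family had 401966 counts (7.65%). miR-148a-3p exceeded miR-152-3p (59195 counts) 5.26 times (interval 5.22 to 5.31) and miR-148b-3p (31196 counts) 9.99 times (9.87 to 10.1).
miR-152-3p: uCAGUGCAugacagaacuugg
miR-148b-3p: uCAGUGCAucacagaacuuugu

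The miR-21a-5p group had 366221 counts, of which all but 29 were those of miR-21a-5p. The miR-30 family had 352436 counts (6.71%) in 5 members, from miR-30a-5p with 146987 down to miR-30b-5p with 7288. The miR-199a-3p and miR-199b-3p group had 308680 counts, which hold the same reads under both IDs. miR-103-3p, from introns of the Pank genes, made 91.7% of the miR-103 and miR-107 family (136522 counts), and miR-199a-5p made 85.2% of the 124407 counts of its family.

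Positions in RefSeq were used to group hairpins within 10 kb of each other on the same strand. Of the 627 miRNAs, 493 had a single hairpin in that table. Among these, 263 lay in a cluster and held 27.6% of the counts of the library, and 230 came from hairpins that stand alone and held 42.1%. Isolated hairpins included those of miR-10b, miR-21a and miR-148a. A miRNA made from several hairpins was counted in each cluster, since the rows do not name the precursor. Therefore the cluster shares below can overlap. miRNAs without a RefSeq entry could not be placed, so their clusters are missing from the ranking. Among them are miR-143 and miR-145a, which share a primary transcript, and miR-143-3p alone held 5.49% of the counts.

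Among the clusters that could be placed, that of Mir199a-2 and Mir214 (chr1:162217814-162223477, plus strand) had the largest share, 5.21% in 4 miRNAs. These miRNAs are known from mesenchymal cells. miR-199a-3p and miR-199a-5p are also made from a second hairpin, Mir199a-1, and the part that only this cluster can give (miR-214-3p with 11117 counts and miR-214-5p with 2207) was 0.254%. Mir99a and Mirlet7c-1 (chr16:77598936-77599750, plus) came second with 4.84%, of which 3.20% was from miRNAs with a single hairpin. The cluster of Mirlet7d, Mirlet7f-1 and Mirlet7a-1 (chr13:48536012-48538272, minus) could account for up to 4.76%, and Mirlet7f-2 with Mir98 (chrX:151912346-151913321, plus) for up to 3.64%. let-7f-5p belongs to both. The cluster of Mir23b, Mir27b and Mir24-1 (chr13:63300484-63301275, plus) could account for up to 2.56%, led by miR-27b-3p and miR-24-3p. Of this, 2.08% was from miRNAs with a single hairpin, since miR-24-3p is also made from Mir24-2. miR-23b-3p (8599 counts) has no RefSeq entry and is not in this sum. The Mir199b gene on chromosome 2 (up to 2.94% from miR-199b-3p) and Mir26a-2 on chromosome 10 (up to 2.06%) each lay within 10 kb of another reference miRNA gene for which no miRNA was counted. miR-199b-5p (18414 counts) has no RefSeq entry and is not in the value for Mir199b.

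The imprinted Dlk1-Dio3 region on chromosome 12, whose miRNAs are expressed from the maternal chromosome, was represented by 76 miRNAs. They lie within chr12:109563692-109747960 (plus strand), where 47 of the 56 reference hairpins had a counted miRNA, and had 311326 counts, which was 5.93% of the library (interval 5.91% to 5.95%). miRNAs without a RefSeq entry, such as miR-485-5p (324 counts), could not be placed and are not in these values, so the region may hold more. The first cluster, from Mir770 to Mir136, held 2.92% and was led by miR-127-3p, which is antisense to Rtl1, and by miR-434-5p (13344 counts). The second, from Mir379 to Mir3072, held 2.86% and was led by miR-379-5p (51469 counts) and miR-411-5p (29087 counts). The counts were uneven, since the 5 most abundant miRNAs held 70.0% of the region, 28 of the 76 had at least 1000 counts and the median was 382.5. Among all 627 miRNAs, 209 had at least 1000 counts and the median was 232.

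On the X chromosome, the cluster from Mir743 to Mir465 (chrX:66776757-66839125, minus strand) had 120483 counts in 32 miRNAs (2.29%). It is a rapidly evolving cluster known from germ cells. Its sum includes the identical 3p counts of miR-465a, miR-465b and miR-465c under each ID. The cluster of Mir322, Mir351, Mir503, Mir542 and Mir450 hairpins (chrX:53047997-53054349, minus) had 104428 counts (1.99%). The miR-17~92 cluster (chr14:115043671-115044506, plus), known for its role in proliferation, had up to 57043 counts (1.09%), led by miR-92a-3p with 21055 and miR-20a-5p with 18135. Its paralog on chromosome 5, Mir25 with Mir93 and Mir106b, had 39235 counts (0.747%), with miR-25-3p at 23808.

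Both arms were listed under the same name for 186 miRNAs. The 5p arm had more counts in 91 of them and the 3p arm in 95. For 20 further miRNAs the other arm carried a hairpin number, such as let-7a-5p (51973 counts) with let-7a-1-3p (820) or miR-125b-5p (64621) with miR-125b-2-3p and miR-125b-1-3p (2876 in all). The 5p arm was higher in 15 of these, so with them it was higher in 106 of 206. The values below are for the 186 pairs of the same name, unless a hairpin number is given. The counting interval of the 5p share lay above 50% for 88, below it for 85 and across it for 13. In counts, 5p miRNAs held 59.9% of the library, 3p miRNAs 38.5% and miRNAs without an arm in their name 1.59%. Most pairs were uneven. The median excess of the more abundant arm was 9.28 times, 89 pairs exceeded 10 times and 36 exceeded 100 times, and 32 were within 2 times. A pair is seen only when each arm had at least 10 counts, so hairpins with an arm below this level are missing here.

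The largest 5p excess among pairs of the same name was that of miR-21a, with 366192 counts on the 5p and 26 on the 3p arm. let-7g had 158793 and 18 counts, miR-100 47711 and 14, and miR-99a 167924 and 85. let-7i (99.9% 5p), miR-20a (99.8%), miR-541 (99.8%) and miR-191 (99.8%) followed. On the other side, miR-27b had 120 counts on the 5p and 108854 on the 3p arm, which is a 5p share of 0.110% (0.0913% to 0.132%). miR-547 had 14 and 8592 counts, miR-23b 17 and 8599, and miR-143 596 and 288159. miR-25, miR-148a, miR-200b and miR-148b also had a 5p share under 1%.

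**Figure D4:**
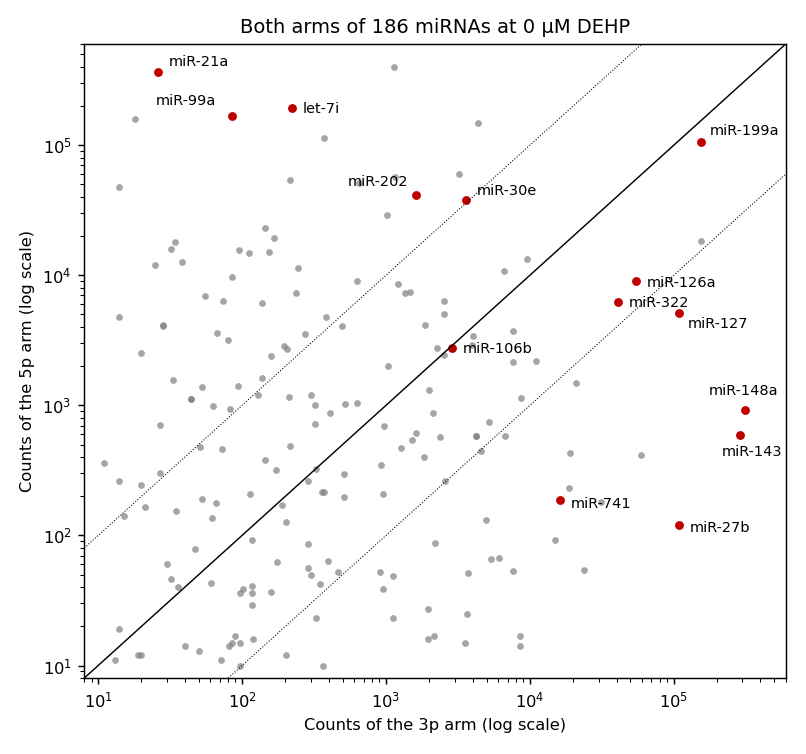
Counts of the 5p arm (y axis, log scale) against counts of the 3p arm (x axis, log scale) for the 186 miRNAs with both arms listed under the same name in the untreated library, each point a miRNA. The solid line marks equal counts and the dotted lines an excess of 10 times. The points lie on both sides, 91 above and 95 below the solid line, and miR-106b and miR-199a are close to it.

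In 4 of the groups examined the same arm was favored throughout. All 6 let-7 pairs had more 5p counts, from 84.4% for let-7d to almost 100% for let-7g. The 4 miR-30 pairs (91.4% to 99.7% 5p) and the 5 pairs of miR-10, miR-99 and miR-100 (94.9% to 100.0%) were also on the 5p side. The 3 pairs of miR-148a, miR-148b and miR-152 were all on the 3p side, with a 5p share of at most 0.691%. This did not hold in the miR-17 family, where miR-17 (93.5% 5p) and miR-20a (99.8%) were on the 5p side while miR-106b, with the same seed on its 5p arm, was at 49.0%. Within genomic clusters the arms were mixed. In miR-17~92, miR-17, miR-18a and miR-20a had more 5p counts, and miR-92a had 21055 counts of miR-92a-3p against 20 of miR-92a-1-5p. The 5p arm was higher in 14 of the 29 Dlk1-Dio3 pairs whose 5p arm had a RefSeq entry. Among these, miR-541 had a 5p share of 99.8% and miR-410 one of 0.784%. The pair of miR-485, whose 3p arm was placed in this region, is left out because its 5p arm had no entry. In the X-linked germ cell group the 5p arm was higher in 5 of 14 pairs, with miR-470 at 99.7% and miR-883a at 0.682%.

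A few hairpins gave both arms in like amounts. The nearest to equal among pairs with at least 100 counts were miR-485 (324 and 327 counts on the 5p and 3p arm), miR-465a (2426 and 2521), miR-106b (2775 and 2884), miR-669a (262 and 285) and miR-700 (171 and 189). The intervals of all 5 included 50%. The 3p count of miR-465a is shared with miR-465b and miR-465c, and both counts of miR-669a are shared with other miR-669 IDs. Among abundant hairpins, miR-199a had 105993 counts on the 5p and 154340 on the 3p arm, where the 3p count also holds the reads of Mir199b. miR-322, an inhibitor of cell cycle genes, had 6260 counts of miR-322-5p and 40803 of miR-322-3p, an excess of 6.52 times (interval 6.35 to 6.69). The neighbouring miR-503 had 8611 counts on the 5p and 1203 on the 3p arm. Both arms of miR-322 and miR-106b are shown, since each arm has its own seed.
miR-322-5p: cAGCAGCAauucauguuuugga
miR-322-3p: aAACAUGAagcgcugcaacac
miR-106b-5p: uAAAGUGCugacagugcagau
miR-106b-3p: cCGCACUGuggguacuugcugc

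Of the 173 pairs whose interval did not include 50% at 0 μM, the same arm was higher in 171 at 10 μM and in 153 at 100 μM DEHP. No replicate was at hand to give the spread of this number.

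Marker miRNAs of the ovarian cell types were then read from the library. Lists of miRNAs known from germ cells, granulosa cells, stroma, muscle, endothelium, epithelium and blood were used, and the counts of their listed members were summed. The sequences of several miRNAs on the germ cell and granulosa cell lists are shown.
miR-881-3p: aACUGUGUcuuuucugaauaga
miR-741-3p: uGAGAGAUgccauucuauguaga
miR-471-5p: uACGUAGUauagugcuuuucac
miR-202-5p: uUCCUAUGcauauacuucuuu
miR-202-3p: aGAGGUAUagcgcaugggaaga
miR-291a-3p: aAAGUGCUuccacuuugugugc
miR-294-3p: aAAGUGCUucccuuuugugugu
miR-295-3p: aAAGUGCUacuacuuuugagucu
miR-293-3p: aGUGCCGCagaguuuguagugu

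The X-linked germ cell miRNAs were well represented. Of the 32 arms on the list, 30 were in the table, 17 with at least 1000 counts, and together they had 120451 counts, 2.29% of the library (2.28% to 2.31%). Of all 627 miRNAs, 209 had at least 1000 counts. The median of the list was 1489 counts, against 232 for all miRNAs. miR-881-3p was the highest with 47423 counts, which made 39.4% of the list. miR-741-3p had 16217 counts, miR-871-3p 8642, miR-465c-5p 6342 and miR-465b-5p 5014. The 3p arms of miR-465a, miR-465b and miR-465c were each listed with 2521 counts and had the same counts in all 3 libraries. The sum of the list includes this count under each ID, and its interval does not cover such repeated reads. The lowest member was miR-465d-5p with 12 counts.

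The miR-290 cluster, known from embryonic stem cells and early germ cells, was present at a low level. Of 18 arms, 11 were listed, with 5095 counts in all (0.0970%, 0.0943% to 0.0997%). miR-293-3p was the highest with 1509 counts, and miR-881-3p was 31.4 times as abundant (29.9 to 33.1). miR-292a-5p had 879 counts, miR-295-3p 729, miR-291a-3p 465 and miR-294-3p 463. The last 3 share the seed AAGUGCU, as their sequences above show. None of the 10 arms of the miR-302 and miR-367 cluster of pluripotent cells was listed, which means fewer than 10 counts if the table was cut at that level.

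Among the miRNAs of meiotic germ cells and multiciliated cells, miR-34c-5p had 14983 counts and miR-34b-5p, made from the neighbouring hairpin, had 2719. miR-449a-5p had 18 counts, and miR-34c-5p was 832 times as abundant (interval 527 to 1405). With miR-34b-3p (205) and miR-34c-3p (155) the listed arms of this group were 0.344% of the library.

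Of the 16 arms listed for granulosa cells, 14 were found, with 121847 counts (2.32%, 2.31% to 2.33%) and a median of 1298.5 counts. miR-202-5p, a gonad-enriched miRNA, ranked 32 in the library with 41367 counts, and its 3p arm had 1614. miR-322-3p had 40803 counts, miR-378a-3p 18721, miR-503-5p 8611 and miR-322-5p 6260. miR-224-5p, known from studies of TGF-beta signaling in granulosa cells, had 1394 counts. The gonadotropin-responsive miR-132-3p had 923 counts and miR-212-3p 113. miR-383-5p, at 52 counts, was the lowest. Several of these miRNAs, such as miR-322, miR-503 and miR-378a, are also expressed outside granulosa cells.

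The stroma list had the largest share. All 10 arms were listed, with 744007 counts or 14.2% of the library (14.1% to 14.2%). This sum holds the reads of miR-199a-3p under both IDs, and with identical IDs taken once it was 11.6%. Because whole ovaries were sequenced, the share does not show which cells these counts came from. miR-143-3p had 288159 counts, and miR-145a-5p, which is processed from the same primary transcript, had 7377, so miR-143-3p was 39.1 times as abundant (38.2 to 40.0). miR-199a-5p had 105993 counts, miR-199b-5p 18414 and miR-214-3p 11117. The striated muscle list had 3 of 8 arms in the table and 391 counts in all, with 354 for miR-1a-3p, 26 for miR-206-3p and 11 for miR-133a-3p.

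The endothelial miR-126a, from an intron of Egfl7, was abundant, and its arms held 1.21% of the library. miR-126a-3p had 54626 counts (1.04%) and miR-126a-5p 9002. miR-143-3p was 5.28 times as abundant as miR-126a-3p, and miR-202-5p reached 0.757 of its count. The red blood cell markers were far lower, with 4 of 5 arms listed and 1351 counts in all (0.0257%). miR-451a, which is matured by Ago2 without Dicer, had 165 counts, and miR-126a-3p was 331 times as abundant (284 to 388). miR-144-3p, from the same transcript as miR-451a, had 16 counts. miR-486a-5p had 1126 counts, which is 6.82 times the count of miR-451a, and miR-486b-5p was listed with the same counts. White blood cell markers, 5 of 8 arms, summed to 522 counts (0.00994%). Among them, miR-155-5p had 221 counts, the pan-leukocyte miR-142a-5p 136 and miR-142a-3p 62, the lymphocyte miR-150-5p 60 and the myeloid miR-223-3p 43.
miR-126a-3p: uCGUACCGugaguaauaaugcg
miR-451a: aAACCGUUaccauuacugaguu

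The epithelial list, with the miR-200 family that keeps Zeb factors low, had 8 of 12 arms in the table and 11069 counts (0.211%). miR-200a-3p had 4934 counts and miR-200b-3p 3540, both from the cluster with miR-429-3p (462 counts) on chromosome 4. The other cluster, on chromosome 6, was lower, with 222 counts for miR-200c-3p and 157 for miR-141-3p. miR-200a-3p was therefore 31.4 times as abundant (26.8 to 37.1) as miR-141-3p, which has the same seed. miR-205-5p, a miRNA of stratified epithelium, had 1608 counts.
miR-200a-3p: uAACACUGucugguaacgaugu
miR-141-3p: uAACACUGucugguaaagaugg
miR-200b-3p: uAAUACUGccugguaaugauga

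Among markers of tissues outside the ovary, 5 of the 6 listed arms had fewer counts than the median miRNA (232), and the exception was neural. The liver miRNA miR-122-5p had 22 counts, the endocrine miR-375-3p 26, the pancreatic miR-216a-5p 18 and miR-217-5p 121. The neural miR-9-5p had 705 counts (rank 233) and made 76.7% of this list, its 3p arm had 27, and miR-124 was not listed. Together the 6 listed arms of these 12 held 0.0175% of the library.

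**Figure D5:**
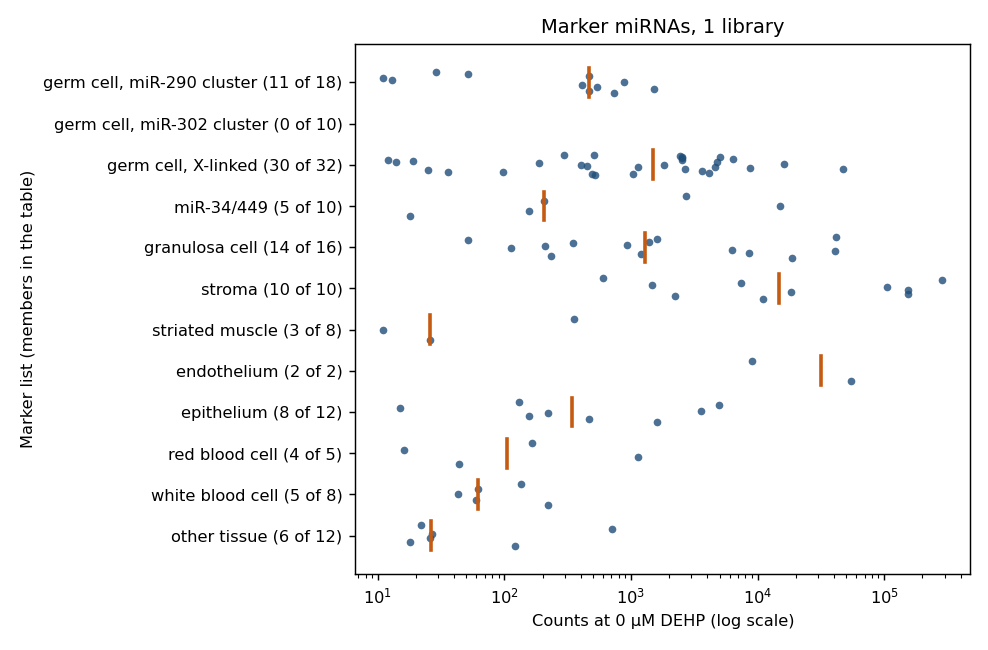
Counts at 0 μM DEHP (x axis, log scale) of the members of each marker list (y axis, with the number in the table of the number on the list). Points are miRNA arms and the orange bars are medians of the listed arms. Stroma and endothelium lie highest, X-linked germ cell and granulosa cell lists have medians of 1489 and 1298.5 counts, and the medians of blood and other tissues are lower.

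The abundant miRNAs also shared features of sequence. Of the 529 miRNAs with a sequence, 43.7% begin with U, and they held 70.5% of the counts of these miRNAs. Among the 50 most abundant, 35 begin with U and 1 with G. Among the 200 with fewer than 100 counts, 77 begin with U and 20 with G. For comparison, U is the first base of 39.7% of the 1150 RefSeq mature miRNAs that are not in the table. A 5′ U is known to fit the binding pocket of Argonaute. The median GC content was 43.5% in the same 50, 47.6% in all 529 and 50% in the 200 with fewer than 100 counts. GC content and the end bases also affect ligation and amplification in small RNA libraries, and their part in these shares was not tested. Counts of different miRNAs are thus not molar amounts.

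Beside the untreated library, the shares of the main groups in the DEHP libraries were as follows, with 1 library each and no measure of the spread between cultures. The let-7 family held 13.8%, 14.7% and 10.8% at 0, 10 and 100 μM. The miR-10 family held 8.62%, 10.4% and 23.0%, and the miR-148 and miR-152 family 7.65%, 5.83% and 22.2%, where miR-148a-3p alone made 20.8% at 100 μM. The untreated value thus lay nearer to that at 10 μM than to that at 100 μM for all 3 families. Among the marker lists, the X-linked germ cell miRNAs held 2.29%, 2.11% and 4.12%. The value at 100 μM was carried by miR-881-3p, since the list without it held 1.39%, 1.43% and 1.26%, and 23 of the 30 members had a lower share at 100 μM than at 0 μM. The stroma list held 14.2%, 13.8% and 11.2%. Without miR-143-3p, whose share was 5.49% at 0 μM and 7.26% at 100 μM, it held 8.68%, 9.44% and 3.96%, and the other 9 members all had a lower share at 100 μM. The granulosa cell list held 2.32%, 2.55% and 1.55%, with 13 of 14 members lower at 100 μM, and the endothelial list 1.21%, 1.39% and 0.0904%. The miR-290 cluster held 0.0970%, 0.0837% and 0.0968%, although 9 of its 11 listed members had a lower share at 100 μM than at 0 μM. Lower shares at 100 μM were not limited to these lists. The median of all 627 miRNAs was 232 counts at 0 μM and 97 at 100 μM, while the totals were 5253367 and 5952274. Ranks 1 to 10 took 45.4% of the counts at 0 μM and 70.5% at 100 μM. Whether lower members were more frequent in the lists than among all miRNAs was not tested. Every listed miRNA had at least 10 counts in the untreated library, whereas some had 0 in the library at 100 μM. If rows were kept by their untreated count, miRNAs that rose from below this level would be missing. This would favor lower shares at 100 μM among the rarest members, such as miR-291b-5p (11 and 1 counts at 0 and 100 μM). Its effect was not tested.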

How the data were processed

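Per the labels and the methods, total RNA was extracted with TRIZOL from CD1 mouse ovaries and sequenced on a HiSeq platform as single-end reads. The authors removed adapters and low-quality bases, used bowtie2 for the comparison with the mouse reference and miRDeep2 for quantification. The deposited values are raw counts in whole numbers, not normalized, with several rows for some mature IDs. The submitters' processing notes name the build mm10 and DESeq2, and tool versions are not given in the sources used here.

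Of 961 rows, the row with the highest total per mature ID was kept (627 IDs). The rows do not name the precursor, so clusters were built from reference positions, not from the precursor of the kept row as planned. The totals were between 5064602 and 5952274 counts. Shares of the 0 μM total, exact Clopper-Pearson 95% intervals, seed families (bases 2 to 8), clusters (hairpins within 10 kb) and arm shares were computed with Python 3.11.15, pandas 2.3.3 and scipy 1.17.1, and intervals were tested on simulated counts. Sequences and positions came from RefSeq (GRCm38.p6). A gene without a hairpin entry was placed by its mature entries (67 of 1072 genes). The text names the 20 most abundant miRNAs, the 10 largest families and placed clusters with their leading members, the most uneven and the most equal arm pairs and the markers on the lists. miRNAs and clusters named beyond these were chosen after their values were seen. Members and lists were chosen with earlier results of these data known. No molecular identifiers are named in the sources used here, so reads were not taken as independent molecules and the intervals cover counting error only. The 10 and 100 μM libraries were only set beside the profile.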

Additional observations from a re-analysis of the deposited data

Results flagged for a closer look

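The rows of mature IDs beyond the row that was kept were not used in the shares, and most of them repeat the kept row. At 0 μM these 334 rows had 1662933 counts, 24.04% of all counts in the table. Of them, 236 were within 1% of the kept row of the same ID. For 3 IDs with at least 1000 counts in the kept row, another row had less than 50% of it. miR-92a-3p had 4156 counts against 21055, miR-101c 513 against 47643 and miR-299b-3p 16 against 4196.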

How the results depend on the processing

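No paired analysis was possible because each concentration has 1 library, which also leaves nothing to omit as a replicate. Arms could not be paired within a precursor, because the rows do not name it. With the rows of an ID summed, the 10 most abundant miRNAs held 48.3%, the let-7 family 15.1%, the Mir199a-2 and Mir214 cluster 9.94% and the stroma list 21.2%. With the row of lowest total these were 46.0%, 13.9%, 5.28% and 14.4%. With identical IDs taken once, an alternative chosen after seeing the data, they were 46.7%, 14.2%, 5.38% and 11.6%. Among miRNAs with at least 100 counts the first 10 held 45.4%, and the 5p arm was higher in 48 of 95 pairs. With the 10 most abundant miRNAs left out, the miR-30 family was the largest family (12.3%), the cluster from Mir770 to Mir136 the largest cluster (5.35%) and the stroma list held 5.13%. With a seed of bases 2 to 7 the let-7 family held 14.2%. Among clusters placed by RefSeq, the largest was that of Mir99a, with 4.84% within 3 kb, 6.10% within 50 kb (where Mir125b-2 joined) and 3.20% for miRNAs with 1 RefSeq hairpin. These settings change which rows, miRNAs or hairpins are summed. Among pairs with 1 row per arm, also chosen after seeing the data, the 5p arm was higher in 82 of 163, and with arms of hairpin-numbered names joined in 106 of 206. Low counts limit the arm shares and the rare markers most, and miRNAs under 10 counts at 0 μM are not seen.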

Other observations

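Counted by chromosome, for the 493 miRNAs with a single RefSeq hairpin, chromosome 2 held 11.7% of the library and chromosome 11 held 10.8%, led by miR-10b-5p and miR-21a-5p. The sum of chromosome 2 includes miR-199b-3p, which has the same counts as miR-199a-3p from chromosomes 1 and 9, and was 8.79% without it. Chromosome 12 gave 93 miRNAs and 6.34% of the counts, and the X chromosome gave 82 miRNAs and 4.97%, with miR-881-3p as its most abundant. In all, 10 sets of mature IDs with at least 100 counts, 22 IDs in number, had identical counts in the 3 libraries, and the IDs beyond the first of each set held 3.14% of the counts at 0 μM. IDs with nearly equal counts were not included, such as miR-101a-3p (47648) with miR-101c (47643) and miR-374b-5p (6303) with miR-374c-5p (6298). The share of reads listed under several IDs may therefore be larger.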
